A study of Rattus norvegicus with 15 samples.

Results

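A set of 174 genes was selected on measured RNA levels in the lumbar spinal cord, which were higher in every untreated nerve-ligated rat than in any sham-operated rat. Levels are given as CPM, the count of a gene divided by the library's total and multiplied by 1000000. A gene entered the set, and is called a member below, if its lowest CPM over the 3 untreated ligated libraries was at least 1 and at least 1.5 times its highest CPM over the 3 sham libraries. The 174 members were drawn from 32883 genes with an Ensembl rat identifier, of which 13767 met the level condition. These 13767 genes are the background used below, and the members are 1.26% of them. The same rule turned round, for genes lower in every ligated library than in any sham library, gave 15 of 13595 genes (0.11%).

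All rats were adult male Sprague-Dawley rats, and RNA came from the L4-L6 cord on the operated side on postoperative day 10. In chronic constriction injury (CCI), 4 loose ligatures are tied around the left sciatic nerve. Sham rats had that nerve exposed without ligatures. The CCI group was ligated and given no drug. CCI+YZP, CCI+YH and CCI+BZ rats were ligated and given the Yuan-Hu Zhi Tong Prescription (YZP) at 10.8 g crude drug/kg, or the preparations named YH at 7.2 and BZ at 3.6 g crude drug/kg, on days 6 to 10. Each of the 5 groups held 3 libraries, with 15093246 to 22757104 counts each, and each drug was given at 1 dose that differs from the others. Route, vehicle and whether CCI and sham rats were given a vehicle are not stated in the sources used here.

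The sciatic nerve carries sensory fibres that end in the dorsal horn of these segments and motor fibres whose cell bodies lie in their ventral horn. Ligation damages these fibres outside the cord. Responses known in the cord after such damage include activation of microglia and astrocytes, production of immune signalling and complement proteins, and growth and stress programmes in injured motor neurons. Which of these the members take part in could not be read here, because neither the tables nor the reference used pairs their identifiers with gene symbols. For the same reason the tissue could not be checked against cell type markers. As the tissue was sequenced in bulk, more cells of a type and more RNA per cell cannot be told apart.

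The members ranged from rare to abundant transcripts. Their mean over the 15 libraries ran from 0.396 to 453.7 CPM, with a median of 7.79 CPM and quartiles of 2.75 and 15.9 CPM. Together they took 0.175% to 0.212% of all counts in the sham libraries and 0.446% to 0.676% in the CCI libraries. The ratio of the lowest CCI to the highest sham library had a median of 1.79 and quartiles of 1.62 and 2.10, so most members lay close to the limit. It was under 2 in 116 members, from 2 to 3 in 38 and at least 3 in 20. The 3 members just inside the limit had ratios of 1.508, 1.509 and 1.511, and the 3 genes just outside had 1.492, 1.489 and 1.487. These values chose the set and are given as a description. An edgeR quasi-likelihood fit of all 15 libraries called 3 of 16522 genes between CCI and sham (0.0182%). All 3 were lower in CCI, which the rule does not admit, so none was a member. This fit included the libraries that chose the set, so nothing is read from it about the members.

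In the treated libraries, which the rule did not use, the members differed more between rats of a group than between the groups. For each library, the level of the members is given as the median over the members of log2((CPM + 0.1)/(mean sham CPM + 0.1)). Sham libraries stood at -0.015, -0.051 and 0.053 and CCI libraries at 1.26, 1.08 and 1.73, in the order of replicates 1 to 3. CCI+YZP libraries stood at 0.71, 1.43 and 0.73. CCI+YH libraries stood at 1.28, 0.66 and 1.59. CCI+BZ libraries stood at 1.74, 0.40 and 0.18. Thus CCI+YZP replicate 2, CCI+YH replicates 1 and 3 and CCI+BZ replicate 1 lay within the range of the CCI libraries or just above it, and the other 5 treated libraries lay between that range and the sham libraries. The sham and CCI values chose the members, so a place between the 2 ranges is partly built in. The median over all 13767 genes stayed between -0.033 and 0.074 in every library.

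**Figure D1:**
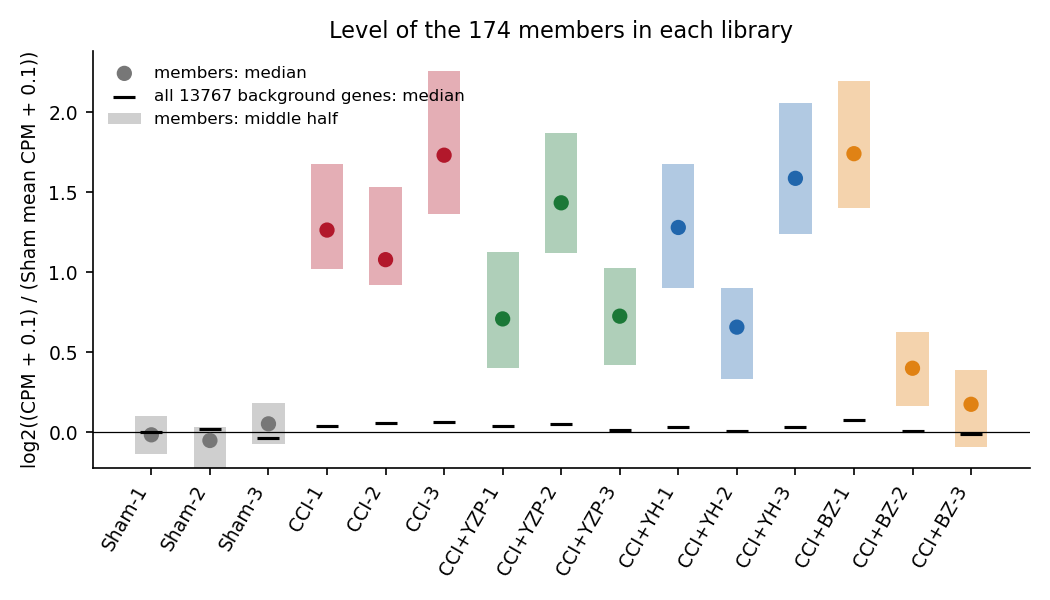
Median (points) and quartiles (bars) over the 174 members of log2((CPM + 0.1)/(mean sham CPM + 0.1)) in each of the 15 libraries, coloured by group, with the median of all 13767 background genes as a black dash. Each treated group holds a library above 1.4 and a library below 0.8 on this scale, while the black dashes stay near 0.

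Counted gene by gene, 149, 168 and 143 of the 174 members lay above their highest sham value in CCI+YZP replicates 1 to 3, where the background gave 36.1%, 40.3% and 29.2% of genes. In CCI+YH the counts were 165, 140 and 168 (background 34.4%, 29.6% and 36.2%). In CCI+BZ they were 166, 127 and 79 (background 43.5%, 28.2% and 20.6%). The members were chosen for low sham values, so a count above the background is partly built in, and the comparison between libraries is the part the rule did not fix. The lowest count was that of CCI+BZ replicate 3, where 95 members (54.6%) lay at or below their highest sham value.

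The contrast was wider for the level of untreated ligation. CCI+YZP replicate 2 reached the lowest CCI value or more in 144 members, and replicates 1 and 3 in 31 each (background 73.1%, 68.9% and 63.9%). CCI+YH replicates 1 to 3 did so in 124, 18 and 154 members (background 69.6%, 59.7% and 70.8%). CCI+BZ replicates 1 to 3 did so in 155, 6 and 6 members (background 79.9%, 60.2% and 54.8%). In 149 members (85.6%) CCI+BZ replicate 1 was at CCI level while both other CCI+BZ libraries were below it (background 18.8%). The members were chosen for high CCI values, so lying below the lowest of them is partly built in.

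**Figure D2:**
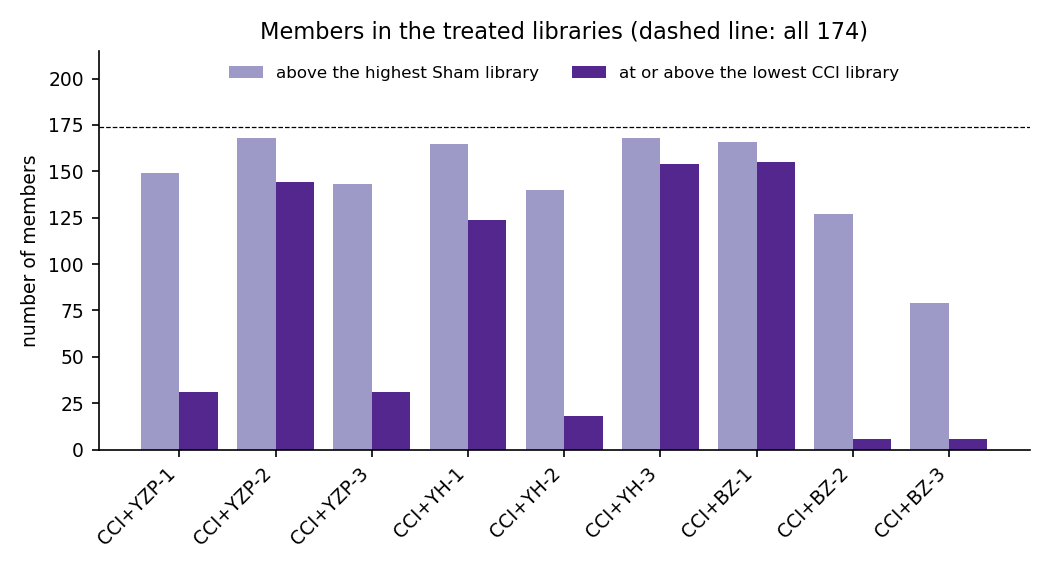
Number of the 174 members (dashed line) that lay above the highest sham library (light bars) or at or above the lowest CCI library (dark bars) in each of the 9 treated libraries. Dark bars run from 6 in CCI+BZ replicates 2 and 3 to 155 in CCI+BZ replicate 1.

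Most members were above sham in most of the 9 treated libraries and at CCI level in fewer. All 9 lay above the highest sham value in 58 members, 8 of 9 in 53 and 7 of 9 in 27. No member had fewer than 2 of the 9 above it. The lowest CCI value was reached in exactly 4 of the 9 libraries by 82 members, in all 9 by 0 and in none of them by 5. The members were chosen for low sham and high CCI values, so both tallies are partly built in. They were not made over the background genes and are a description.

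The members moved together across the treated rats. In a principal component analysis of log2(CPM + 0.1) over the 9 treated libraries, centred by gene, the first component held 72.1% of the variance of the members and 31.3% of that of the 13767 background genes. Of the members 169 loaded on it with the same sign and 5 with the other, while 63.1% of the background genes shared a sign. Libraries scored 1.06 (CCI+BZ replicate 1), 0.85 and 0.41 (CCI+YH replicates 3 and 1) and 0.78 (CCI+YZP replicate 2) at the high end. At the low end they scored -0.36 and -0.41 (CCI+YZP replicates 3 and 1), -0.56 (CCI+YH replicate 2), -0.74 and -1.02 (CCI+BZ replicates 2 and 3). The background genes gave the libraries scores of the same signs, from -0.21 to 0.21.

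Within each treated group 1 library led. CCI+YZP replicate 2 was the highest of its group in 157 members (background 43.6%), CCI+YH replicate 3 in 145 (36.9%) and CCI+BZ replicate 1 in 163 (51.8%). All 3 of these held at once in 133 members (76.4%), against 14.6% of the background genes. These 3 libraries were picked out after their values were seen. In the CCI group, replicate 3 was the highest in 149 members (background 39.2%), although these values entered the rule.

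The spread within a group was largest under BZ. The median coefficient of variation of the members over 3 libraries was 14.2% in sham, 28.0% in CCI and 68.8% in CCI+BZ. It was 32.0% in CCI+YZP, and 34.2% in CCI+YH. The median over the background genes was between 6.96% and 9.25% in each group. The highest CCI+BZ library held at least 2 times the lowest in 156 members (background 5.53%), compared with 95 in CCI+YH (4.31%) and 65 in CCI+YZP (4.09%). The difference in spread between the groups was not tested. The sham and CCI values entered the rule, so their spreads are not a baseline for those of the treated groups.

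**Figure D3:**
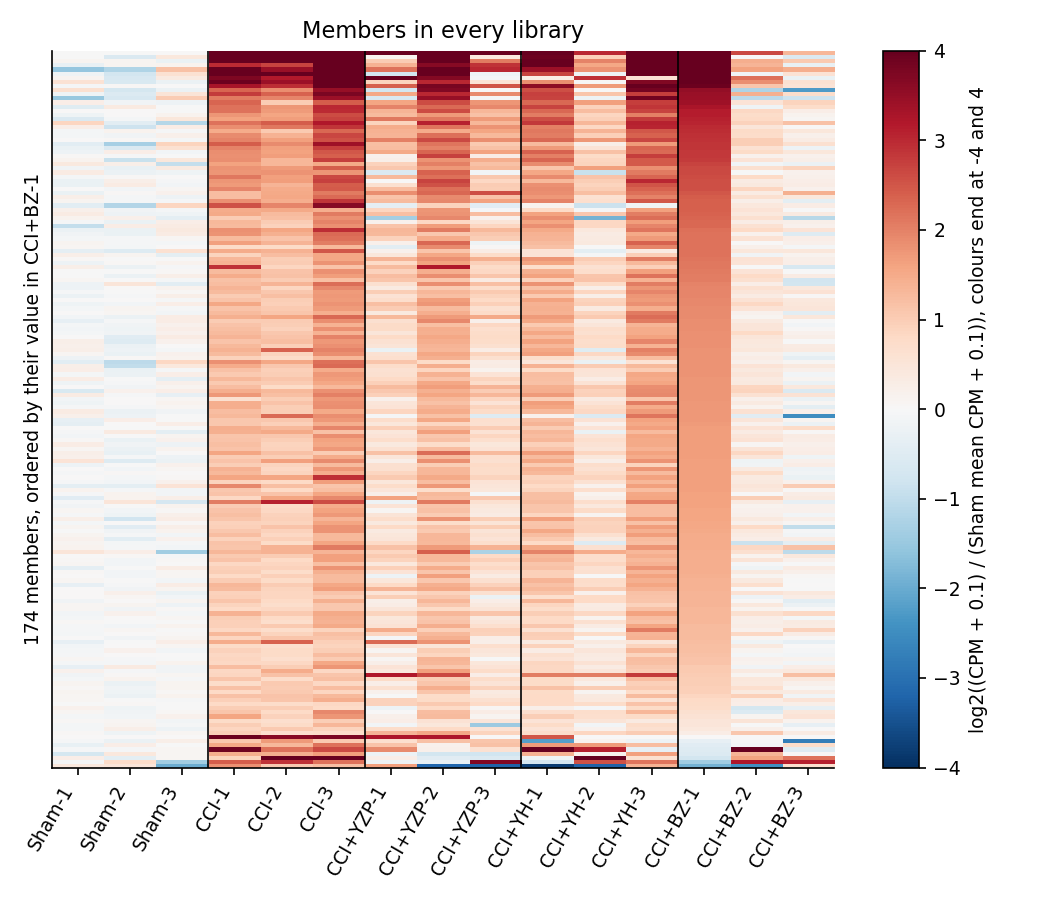
Each row is 1 of the 174 members, ordered by its value in CCI+BZ replicate 1, each column a library, and the colour is log2((CPM + 0.1)/(mean sham CPM + 0.1)), red for higher than sham. The columns of CCI+YZP replicate 2, CCI+YH replicates 1 and 3 and CCI+BZ replicate 1 are red over nearly the whole set, as in CCI, and those of CCI+BZ replicates 2 and 3 are pale.

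Other properties of the libraries also set apart the library with the highest member level in each treated group. The 3 most abundant genes of the series took 8.49% to 9.60% of counts in sham and 6.78% to 7.55% in CCI. In replicates 1 to 3 they took 8.0%, 7.02% and 8.56% under YZP, 7.91%, 9.09% and 7.38% under YH, and 6.76%, 8.43% and 9.18% under BZ. In each treated group the library with the highest member level therefore had the lowest such share. Its part in the result was not tested. The number of genes at 1 CPM or more varied little, from 13978 to 14233, but it was also highest in the leading library of each treated group. It was 14228 in CCI+YZP replicate 2, 14110 in CCI+YH replicate 3 and 14224 in CCI+BZ replicate 1. The other treated libraries had 14009 to 14084. Below the leading library, the order in each treated group was against that of the member levels. CCI+YZP replicates 1 and 3 had 14075 and 14066, and CCI+YH replicates 1 and 2 had 14061 and 14084. CCI+BZ replicates 2 and 3 had 14009 and 14038. The part of the number of genes at 1 CPM or more was not tested either. With libraries rescaled by TMM (trimmed mean of M-values) the member level was 1.37 in CCI+YZP replicate 2, 1.55 in CCI+YH replicate 3, 1.66 in CCI+BZ replicate 1 and 0.19 in CCI+BZ replicate 3.

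The most abundant member, ENSRNOG00000052880, followed the shared pattern at a modest fold. It held 285.8, 256.9 and 306.7 CPM in sham and 509.0, 612.3 and 612.6 CPM in CCI. Under YZP it held 275.0, 757.7 and 339.9 CPM, under YH 548.1, 280.6 and 747.1 CPM, and under BZ 679.2, 300.9 and 293.3 CPM. The libraries with high values overlapped the CCI range or passed it, and 4 of the 5 others lay inside the sham range. The means under YZP, YH and BZ were 458 ± 262, 525 ± 234 and 424 ± 221 CPM (SD, n = 3 each), and the treated groups overlapped throughout.

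ENSRNOG00000051472 had the largest ratio among members seen in any sham library, and behaved nearly as an on-off gene. It had 1, 0 and 2 counts in the sham libraries and 282, 196 and 224 counts in the CCI libraries. The ratio of the pooled rates was 226 (95% exact interval 77.1 to 1100, counting error only, without the spread between rats). The gene was picked for its ratio in these same libraries, so both values are a description and not a test. In CPM, CCI libraries held 12.4, 8.91 and 12.7. CCI+YZP libraries held 0.0641, 11.6 and 0.0970 CPM, CCI+YH libraries 2.19, 0.193 and 12.1 CPM, and CCI+BZ libraries 13.3, 0.0522 and 0 CPM. The leading library of each treated group reached the CCI range or passed it, and 5 of the 9 treated libraries stayed below 0.2 CPM, close to sham.

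Of the next 5 members by ratio, which ran from 31.7 down to 9.05, all had their highest CCI+YZP, CCI+YH and CCI+BZ value in the same leading libraries. One member was listed at 0 in all sham libraries and had 32, 25 and 22 counts in CCI, at least 25.5-fold higher than a floor of 3 counts over the sham group. It had 13, 15 and 0 counts under YZP, 7, 0 and 0 under YH and 0 in each CCI+BZ library, and so departed from the shared pattern in CCI+YH replicate 3 and CCI+BZ replicate 1.

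Of the 5 members that loaded against the rest, the 3 with the strongest loadings had irregular levels within groups. The one of these 3 with the largest ratio held 0.742, 0.734 and 0.814 CPM in sham and 12.8, 3.82 and 5.28 CPM in CCI. Under YZP it held 3.08, 0.901 and 1.21 CPM, under YH 19.7, 7.39 and 0.586 CPM, and under BZ 0.499, 17.4 and 0.502 CPM. Its highest CCI+BZ value was thus in replicate 2, and CCI+BZ replicate 1 lay below every sham library.

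**Figure D4:**
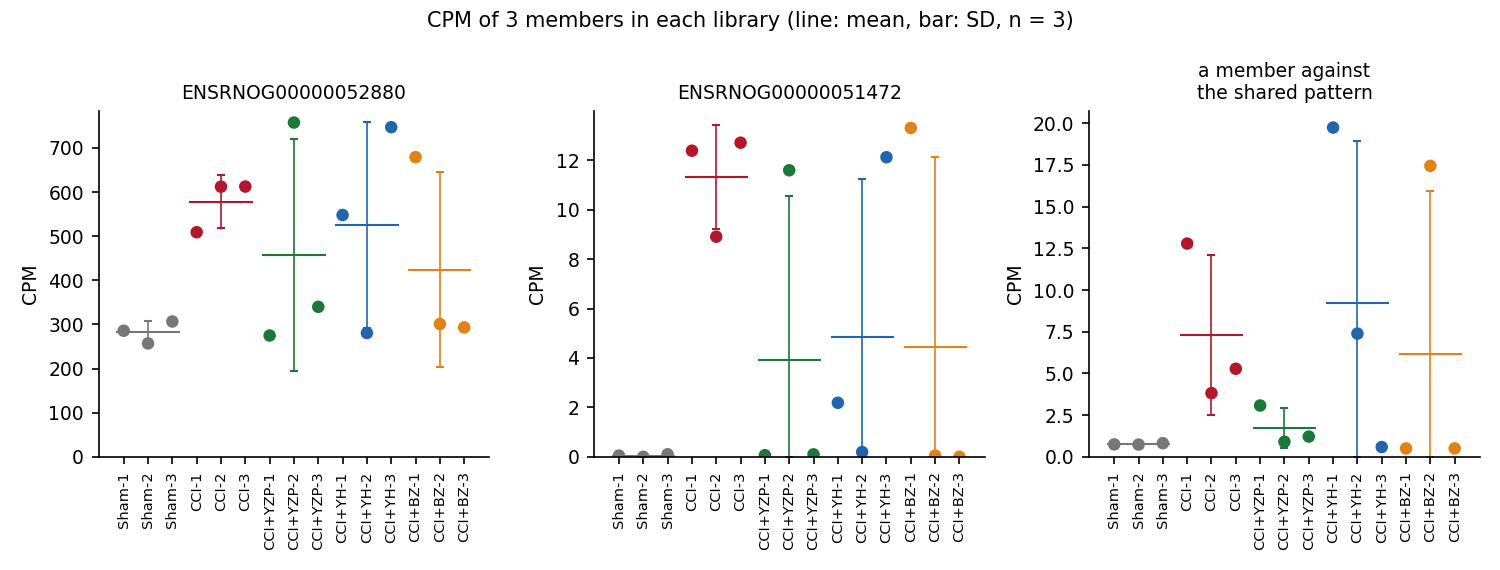
CPM in each library of ENSRNOG00000052880, ENSRNOG00000051472 and an unnamed member that departs from the shared pattern, with group means (lines) and SD (bars, cut at 0, n = 3). ENSRNOG00000051472 is at 11.6, 12.1 and 13.3 CPM in CCI+YZP replicate 2, CCI+YH replicate 3 and CCI+BZ replicate 1, while the third gene is highest in CCI+YH replicate 1 and CCI+BZ replicate 2.

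The size of the difference from sham changed little with abundance. The group level below is the median over members of the log2 ratio of the group mean to the sham mean. In CCI it was 1.46 for the 66 members with a mean under 5 CPM, 1.38 for 69 members at 5 to 20 CPM and 1.30 for 39 members at 20 CPM or more. In CCI+BZ it was 0.97, 0.99 and 0.82 in the same bands. Members with a CCI to sham ratio of at least 3 had a median of 3.30 in CCI+BZ replicate 1, 1.05 in replicate 2 and 0.27 in replicate 3, the same order of the 3 CCI+BZ libraries as over all members.

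Group by group, the members' level was 1.37 in CCI, and 1.03, 1.20 and 0.96 under YZP, YH and BZ. The medians of single libraries averaged 1.36 ± 0.336, 0.96 ± 0.414, 1.17 ± 0.474 and 0.77 ± 0.846 in that order (SD, n = 3 each), so the treated groups differed by less than the spread between their libraries. Without CCI+BZ replicate 1 the level of that group was 0.29, and without CCI+YZP replicate 2 that of CCI+YZP was 0.73. All 3 libraries lay above the highest sham value in 130 members under YZP (background 13.8%), 136 under YH (12.4%) and 64 under BZ (6.32%). Every treated group shares the sham and CCI libraries that chose the members, so these levels are a description.

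The 3 treated groups were compared with each other directly, at doses that differ, by an edgeR quasi-likelihood fit of the 9 treated libraries alone, which the rule did not touch. Of the members 173 passed its filter on low counts. After Benjamini-Hochberg adjustment over 16081 genes, 0 members were called in CCI+YZP against CCI+BZ, where 2 genes were called in all (0.0124%). In CCI+YH against CCI+BZ 0 members were called, with 4 genes in all (0.0249%), and in CCI+YZP against CCI+YH 0 members, with 0 genes in all (0%). At an unadjusted edgeR p under 0.05 there were 5, 4 and 4 members in that order, 2.89%, 2.31% and 2.31% of those tested, against 4.3%, 4.54% and 2.77% of all genes. DESeq2 called 0, 1 and 0 members, where it called 26, 34 and 3 genes in all (0.162%, 0.211% and 0.0187%). Limma voom called 0 members in each comparison, where it called 2, 1 and 0 of 16081 genes in all.

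These comparisons leave wide limits. The median width of the 95% interval of a member's log2 difference was 2.06, 2.05 and 2.06 in the same order. For ENSRNOG00000052880 the log2 difference of CCI+YH from CCI+BZ was 0.32 (95% interval -0.71 to 1.35, edgeR adjusted p = 1.00). The difference of CCI+YZP from CCI+BZ was 0.10 (-0.92 to 1.13, edgeR adjusted p = 1.00) and that of CCI+YZP from CCI+YH was -0.21 (-1.24 to 0.81, edgeR adjusted p = 1.00). The median difference over the 173 members was 0.27 for CCI+YH against CCI+BZ, with 155 above 0, where the median of all 16081 genes was -0.0014 and 49.5% were above 0. It was -0.22 for CCI+YZP against CCI+YH, with 29 above 0 (all genes -0.0025 and 49.1%), and 0.042 for CCI+YZP against CCI+BZ, with 101 above 0 (all genes -0.00094 and 49.7%). The members are not independent of each other, so these counts of signs are a description.

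Complete separation of treated groups was rare among the members, as it was among the background genes. Every CCI+YH library lay above every CCI+BZ library in 5 members (2.87%, background 4.15%), and the reverse held in 1 (0.575%, background 4.53%). Every CCI+YZP library lay above every CCI+BZ library in 3 members (1.72%, background 5.52%), and the reverse in 0 (0%, background 3.42%). For CCI+YZP and CCI+YH the counts were 1 (0.575%, background 5.27%) and 3 (1.72%, background 2.67%). Without CCI+BZ replicate 1, the unadjusted edgeR p was under 0.05 for 99 members in CCI+YH against CCI+BZ, all higher in CCI+YH (background 7.13% of all genes). It was for 64 in CCI+YZP against CCI+BZ (5.63%). That library was singled out after its high member level was seen, and leaving it out lowers the CCI+BZ level. Without CCI+BZ replicate 2 or 3 the counts in CCI+YH against CCI+BZ were 6 and 5 of 174 members. Over all genes they were 639 of 16310 and 743 of 16299. In CCI+YZP against CCI+BZ they were 5 and 5 members, and 609 of 16310 and 698 of 16299 genes. The members moved together, so these counts are a description. No member passed the edgeR adjustment in any of these fits.

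The member that DESeq2 called between CCI+YH and CCI+BZ was also the one with the smallest edgeR p in that comparison. It held 4.80, 7.19 and 5.90 CPM in sham and 17.6, 14.7 and 27.0 CPM in CCI. CCI+YZP libraries held 13.1, 6.76 and 13.4 CPM, CCI+YH libraries 19.7, 19.8 and 14.2 CPM, and CCI+BZ libraries 4.33, 5.69 and 9.99 CPM. Every CCI+YH library lay above every CCI+BZ library, and CCI+BZ replicate 1 was the lowest of its group here, unlike in most members. The log2 difference was 1.41 (SE 0.349) with an adjusted p of 0.72 in edgeR and of 0.0149 in DESeq2.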

How the data were processed

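Each library's table holds the authors' raw counts for 34202 rows, as deposited. The submitters' processing notes name build rn4 and DESeq2 1.16.1. Aligner, counter, annotation and strand setting: not given in the sources used here. Overlapping, antisense or near-identical genes may therefore share reads. Rows labelled by a running number (1319) stayed in totals and tests, and out of the rule. The reference table (GRCr8, 47357 genes) holds an Ensembl identifier for 0 genes, so the 29 gene lists could not be applied and no sequence is shown. Without symbols the naming rule allows 2 raised identifiers: the member with the highest mean and that with the largest finite ratio, chosen after their values were seen.

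The members and lists were chosen with earlier results of these data known. Libraries are taken as separate rats, since the labels speak of 3 sequenced of 7 per ligated group. If they were not, p-values measure technical spread. Same-group libraries differed by more than sampling noise (chi-square per gene 6.73 to 25.5, 15 pairs). Tests used edgeR 4.0.16 (R 4.3.3) on the 9 treated libraries, with filterByExpr (minimum count 10), TMM and an adjusted p under 0.05. The common biological coefficient of variation was 16.1%, with 6 residual degrees of freedom. The fit was tried on simulated data in which genes varied independently. The members moved together, so that trial is no check on counts of members. Intervals of log2 differences derive from the F statistic. Alternatives were DESeq2 1.42.0, limma voom 3.58.1, RLE scaling, no filter, all 15 libraries, a fit per pair of groups, a replicate block, a threshold of 0.1, other limits, scalings and pseudocounts, and leaving out each library.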

Additional observations from a re-analysis of the deposited data

Results flagged for a closer look

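Loci named only with a running number (1319) lay outside the rule. Their signal was above sham in 5 of them by the conditions set for members, out of 657 with at least 1 CPM in every CCI library (0.761%). The one with the highest mean held 2.28, 2.30 and 2.39 CPM in sham and 6.02, 4.36 and 6.59 CPM in CCI. Under YZP it held 6.73, 6.59 and 5.19 CPM, under YH 7.35, 3.62 and 8.49 CPM, and under BZ 10.3, 3.24 and 2.91 CPM. What these loci are cannot be read from the tables.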

How the results depend on the processing

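The number of members depended on the rule. It was 58 at a 2-fold limit, 108 with at least 5 CPM in every CCI library, 194 with at least 0.5 CPM and 151 with TMM-scaled CPM, all 151 of them among the 174. Without 1 library it ranged from 195 (CCI replicate 3) to 299 (Sham replicate 3), with 291 without CCI replicate 2. A rule over fewer libraries is easier to meet. The group levels moved by less than 1 SD of their own library medians under each alternative. That SD includes the library left out, so the limit is hard to pass and is no check of stability. CCI+BZ fell from 0.96 to 0.29 without replicate 1, where the SD was 0.846. With libraries left out the group levels ranged from 0.73 to 1.15 under YZP, 1.02 to 1.44 under YH and 0.29 to 1.24 under BZ.

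Members called stayed at 0 in each treated comparison under every alternative, except for 1 by DESeq2 in CCI+YH against CCI+BZ. Genes called overall varied, and the cause was not tested. CCI+YZP against CCI+BZ gave 26 by DESeq2, 4 without a filter, and 1 (without CCI+BZ replicate 2) to 6 (without CCI+YZP replicate 2) with a library left out. CCI+YH against CCI+BZ gave 34 by DESeq2, 1 by limma voom, 7 with all 15 libraries, 1 with only the 2 groups, 7 at an adjusted p under 0.1, and 1 to 7 with a library left out. It was 7 without CCI+YH replicate 2, 2 without CCI+BZ replicate 1 or 3, and 1 without CCI+YZP replicate 3, CCI+YH replicate 1 or 3 or CCI+BZ replicate 2. CCI+YZP against CCI+YH gave 3 by DESeq2 and 0 to 4 with a library left out, with 4 without CCI+YH replicate 2 and 1 without CCI+YZP replicate 2. With the replicate block the counts were 1, 2 and 0 genes and 0 members in each. The numbers did not pair the libraries: deviations correlated at -0.16 to 0.14 over 9 same-numbered pairs, 2 of them over 0.1, and 0 of 9 libraries correlated best with its own number. Depth limits most the members with few counts, such as those with 0 to 3 counts over all sham libraries.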
